A study of Rattus norvegicus with 6 samples.

Results

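Hmox1, Nqo1, Gclc and Txnrd1 are 4 genes of the Nrf2 oxidative stress response, and their transcripts were examined in back skin of rats given afatinib or vehicle. They were taken by identifier (Hmox1, ENSRNOG00000014117; Nqo1, ENSRNOG00000012772; Gclc, ENSRNOG00000006302; Txnrd1, ENSRNOG00000009088) as 4 of the 33692 features counted, and all 4 passed the filter on low counts. The deposited tables hold identifiers without symbols, and the symbols used here came with the choice of the genes and were not checked against a reference. Afatinib irreversibly inhibits the ErbB family of receptor tyrosine kinases, which includes the epidermal growth factor receptor, and patients given such drugs often develop a rash. The study compared 3 libraries of skin from rats that received vehicle with 3 libraries of skin from rats that received afatinib. Strain, sex, age, dose, route and duration, and whether each library came from 1 animal, are not stated in the labels used, so p-values measure the spread between these libraries, which may be partly technical.

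Nrf2 is a transcription factor that the adaptor protein Keap1 marks for degradation in unstressed cells. Oxidants and electrophiles modify Keap1, and Nrf2 then accumulates, pairs with small Maf proteins and binds antioxidant response elements in its target genes. In skin this response is known for protecting keratinocytes against ultraviolet light and reactive chemicals. The 4 genes stand for different arms of it. Hmox1 encodes heme oxygenase 1, which breaks down heme and is also abundant in macrophages that clear red cells. Nqo1 encodes a quinone reductase of detoxification. Gclc encodes the catalytic subunit of glutamate-cysteine ligase, which carries out the rate-limiting step of glutathione synthesis. Txnrd1 encodes the cytosolic thioredoxin reductase, a selenoprotein that keeps thioredoxin reduced.

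The antioxidant response element has a core that was searched as TGACNNNGC on both strands of RefSeq promoter windows (build GRCr8, 250 bases before to 50 bases after a start site). Windows were available for 3 of the 4 genes, with 2 for Txnrd1 and 1 each for Nqo1 and Gclc. The windows of Nqo1 and Txnrd1 are printed because these 2 genes were called once afatinib replicate 3 was left out, as described below. The Nqo1 window lies at chr19:52220218-52220517 on the minus strand, and the Txnrd1 window with a match lies at chr7:22755855-22756154 on the minus strand. Capitals mark the match, which reads TGACAAAGC on the opposite strand. The first capital in the printed window lies 78 bases before the start site.
Nqo1: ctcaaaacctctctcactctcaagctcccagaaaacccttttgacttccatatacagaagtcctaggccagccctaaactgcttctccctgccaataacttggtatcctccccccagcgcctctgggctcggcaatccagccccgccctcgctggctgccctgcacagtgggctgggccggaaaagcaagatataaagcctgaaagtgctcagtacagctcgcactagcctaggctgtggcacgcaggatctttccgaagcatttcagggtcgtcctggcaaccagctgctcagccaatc
Txnrd1: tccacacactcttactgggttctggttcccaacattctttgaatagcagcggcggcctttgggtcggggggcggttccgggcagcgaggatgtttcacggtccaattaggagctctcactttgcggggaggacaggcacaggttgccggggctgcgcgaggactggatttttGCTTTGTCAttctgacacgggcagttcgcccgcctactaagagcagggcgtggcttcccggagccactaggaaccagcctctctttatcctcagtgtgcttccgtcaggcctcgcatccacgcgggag
The core was found in 1 of these 4 windows, and in 12.1% of the 33469 promoter windows of the same length. The related AP-1 motif TGANTCA, which an antioxidant response element can contain, was found in none of the 4 windows and in 7.33% of all windows. A match is a description of the letters in this window and not a site of binding, and these data do not measure binding. Sequence outside the windows was not searched, so a window without a match does not mean a gene without the element. The labels used here state no genome build for the count tables, so the windows were not tied to the counted gene models.

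Total counts per library ran from 15304166 to 18494281, and the afatinib totals were all lower than the vehicle totals. The 4 genes had between 266 and 2057 counts in a library, so that the counting error of a single value was at most 6.13% of it (1 SD). Values are given below as CPM, the counts of a gene per 1000000 counts of the library, on library sizes scaled by TMM, a method that sets the scale from the bulk of the features. The TMM factors were 1.11 in both afatinib replicates 1 and 2, 0.92 in afatinib replicate 3 and between 0.91 and 1.01 in the vehicle libraries. Levels are not compared between genes, because no transcript lengths were used. In bulk skin, fewer cells of a type and less RNA per cell cannot be told apart. No other gene could be named from the tables, so markers of skin and of other cell types were not examined.

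All 4 genes had a higher mean after afatinib than after vehicle, by 1.25-fold to 1.88-fold, but none passed the test across all features. With an adjusted p under 0.05 as the threshold in edgeR's quasi-likelihood test, 0 of the 4 genes were called, beside 0% of the 15497 features tested. At an unadjusted p under 0.05, 1 of the 4 genes, Hmox1, was higher after afatinib, beside 10.3% of all features (19.5% in either direction). DESeq2 called 0 of the 4 genes, beside 3.9% of its features as higher, and placed Hmox1 and Nqo1 at an unadjusted p under 0.05, beside 9.19% of features as higher. The median log2 fold change was 0.45 over the 4 genes and 0.00 over all features, and the fitted value was above 0 for 49.7% of all features. Afatinib replicate 1 was the highest of the 6 libraries and afatinib replicate 2 the second highest for all 4 genes, an order found in 19.3% of features. Afatinib replicate 3 lay above all vehicle libraries for Hmox1 only. Across the 15497 features its log2 CPM correlated with the vehicle libraries by 0.943 to 0.960 (Pearson, across features). With afatinib replicates 1 and 2 it correlated by 0.907 and 0.944, the latter within its range for the vehicle libraries. Results are given with and without it because calls appeared when it was left out, as described below.

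**Figure D1:**
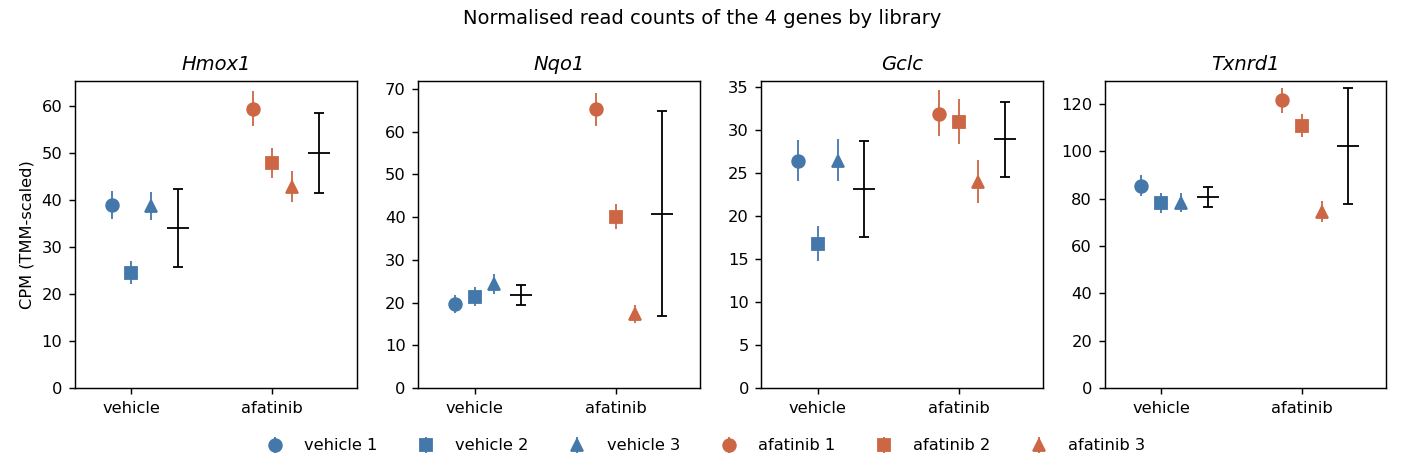
TMM-scaled CPM (vertical axis, from 0) of Hmox1, Nqo1, Gclc and Txnrd1 in the 3 vehicle and 3 afatinib libraries. Coloured points are libraries with 95% Poisson intervals of their counts, and black bars are the group mean ± SD (n = 3). Afatinib replicates 1 and 2 lie above all vehicle libraries in each panel, while afatinib replicate 3 lies above them for Hmox1 only.

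Hmox1, the heme-degrading enzyme, was the gene whose groups did not overlap. Its level was 38.9, 24.5 and 38.7 CPM in vehicle replicates 1, 2 and 3, and 59.4, 47.8 and 42.9 CPM in afatinib replicates 1, 2 and 3. The 3 afatinib libraries were thus above the 3 vehicle libraries, an arrangement seen in 12.9% of the features tested. The lowest afatinib library was close to the highest vehicle library: the 95% Poisson interval of the counts, which covers counting error only, ran from 39.7 to 46.3 CPM in afatinib replicate 3 and from 36.0 to 41.9 CPM in vehicle replicate 1. Scaled by library totals instead of TMM, these 2 libraries had 39.2 and 37.5 CPM, and vehicle replicate 3 had 38.7 CPM. Vehicle libraries averaged 34.0 ± 8.24 CPM and afatinib libraries 50.0 ± 8.52 CPM (SD, n = 3 per group). EdgeR's quasi-likelihood fit put the log2 fold change at 0.56 (unadjusted p = 0.044, adjusted p = 0.247). Limma voom gave 0.57 with a standard error of 0.23 and a 95% interval from 0.03 to 1.11. That interval is not adjusted for the number of features tested, and the adjusted p of limma voom was 0.258.

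The size of the Hmox1 difference depended on vehicle replicate 2, its lowest library. Without that library the log2 fold change of Hmox1 was 0.36 (adjusted p = 0.444 by edgeR). Without afatinib replicate 3 it was 0.65, with an adjusted p of 0.123 in edgeR and 0.0683 in DESeq2, so Hmox1 was called in neither.

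Nqo1, the quinone reductase, had the largest fold difference of the 4 genes with all 6 libraries and the largest coefficient of variation among afatinib libraries. It was measured at 19.6, 21.3 and 24.3 CPM in vehicle replicates 1, 2 and 3. In afatinib replicates 1, 2 and 3 it was measured at 65.2, 40.0 and 17.3 CPM. Relative to the vehicle mean, afatinib replicates 1 and 2 were at 3.0 and 1.84 times its level, while afatinib replicate 3 was at 0.80 times that level and was the lowest of all 6 libraries. The coefficient of variation was 11.0% among vehicle and 58.6% among afatinib libraries, against a counting error of at most 6.12% for a single Nqo1 value. Vehicle libraries averaged 21.7 ± 2.40 CPM and afatinib libraries 40.8 ± 23.9 CPM (SD, n = 3 per group). The log2 fold change from edgeR was 0.91 (adjusted p = 0.299), and limma voom gave 0.73 with a standard error of 0.47 and a 95% interval from -0.41 to 1.87. The biological coefficient of variation that edgeR estimated for Nqo1 was 39.3%, against 23.0%, 23.4% and 21.6% for Hmox1, Gclc and Txnrd1 and a median of 25.2% over all features.

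Which afatinib libraries were included decided the Nqo1 call. Without afatinib replicate 3 the log2 fold change of Nqo1 was 1.27, and the adjusted p was 0.0337 by edgeR, 0.000121 by DESeq2 and 0.0437 by limma voom, which called 4.4% of features as higher. Without afatinib replicate 1 it was 0.40, with an adjusted p of 0.651 in edgeR, and Hmox1, at 0.41, was then slightly higher.

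Txnrd1, the thioredoxin reductase, had the order of afatinib libraries that all 4 genes shared, with smaller differences than Nqo1. Its level was 85.5, 78.1 and 78.3 CPM in vehicle replicates 1, 2 and 3, a spread of 5.23% of the mean. In afatinib replicates 1, 2 and 3 it was 121.4, 110.7 and 74.5 CPM. Afatinib replicates 1 and 2 were thus at 1.51 and 1.37 times the vehicle mean, and afatinib replicate 3, at 0.92 times that mean, was again the lowest of all 6 libraries. This place was held by afatinib replicate 3 in 2 of the 4 genes and in 13.5% of all features. Vehicle libraries averaged 80.6 ± 4.21 CPM and afatinib libraries 102.2 ± 24.6 CPM (SD, n = 3 per group). The log2 fold change from edgeR was 0.34 (adjusted p = 0.354), and limma voom gave 0.31 with a standard error of 0.20 and a 95% interval from -0.17 to 0.79.

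Without afatinib replicate 1 the log2 fold change of Txnrd1 was 0.20 (adjusted p = 0.679 by edgeR). Without afatinib replicate 3 it was 0.52, and the adjusted p was 0.0472 by edgeR, 0.000544 by DESeq2 and 0.0521 by limma voom, which did not call it. Nqo1 and Txnrd1 were thus 2 of the 4 genes called as higher in edgeR without this library, beside 5.18% of the 16014 features tested. In DESeq2 without this library the same 2 genes were called, beside 12.9% of features as higher. Each library was left out in turn in edgeR, and the fits without afatinib replicate 3 are singled out because calls appeared there, so they do not replace the comparison of all 6 libraries.

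Gclc, the catalytic subunit of glutathione synthesis, differed by a fold similar to that of Txnrd1. It was measured at 26.4, 16.8 and 26.4 CPM in vehicle replicates 1, 2 and 3 and at 31.9, 30.9 and 24.0 CPM in afatinib replicates 1, 2 and 3. The groups overlapped, because afatinib replicate 3 lay between vehicle replicate 2 and the other 2 vehicle libraries. Vehicle libraries averaged 23.2 ± 5.57 CPM and afatinib libraries 28.9 ± 4.34 CPM (SD, n = 3 per group). The log2 fold change from edgeR was 0.32 (adjusted p = 0.429), and limma voom gave 0.33 with a standard error of 0.22 and a 95% interval from -0.20 to 0.87. Without vehicle replicate 2 the value was 0.13, with an adjusted p of 0.759 in edgeR. Without afatinib replicate 3 it was 0.43, with an adjusted p of 0.233 in edgeR and 0.235 in DESeq2.

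**Figure D2:**
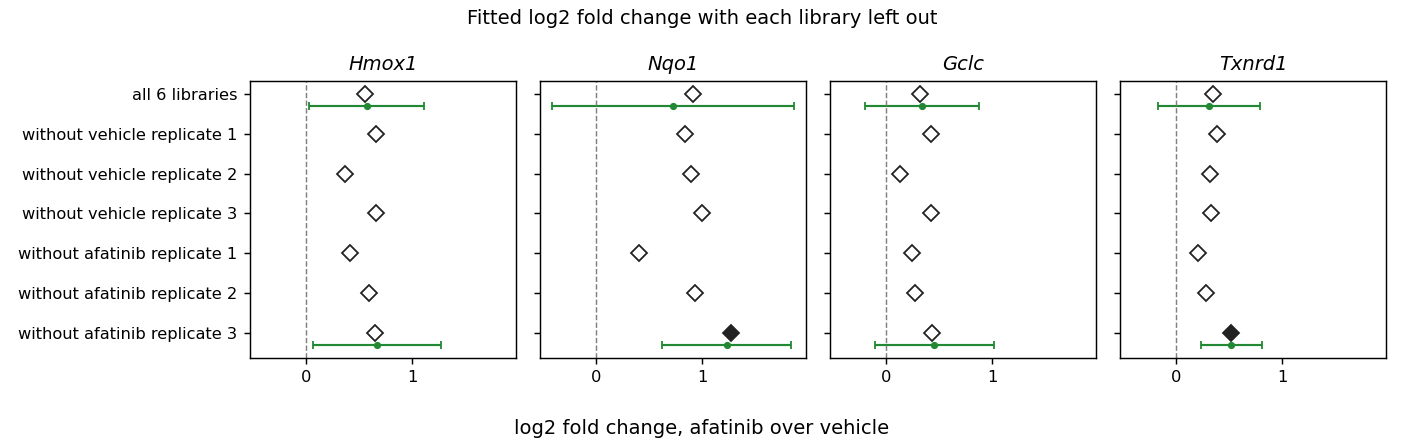
Log2 fold change of afatinib over vehicle (horizontal axis) with all 6 libraries and with each library left out. Diamonds are edgeR's values, filled where the adjusted p was under 0.05, and green bars are limma voom's estimates with 95% intervals. All diamonds lie above 0, and the filled ones are Nqo1 (1.27) and Txnrd1 (0.52) without afatinib replicate 3.

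The 4 genes differed in which library was lowest. Hmox1 and Gclc shared a low value in vehicle replicate 2, at 0.72 times the vehicle mean in both. Vehicle replicate 2 was the lowest of all 6 libraries for these 2 genes, and for 22.8% of all features. Nqo1 and Txnrd1 were lowest in afatinib replicate 3 and had no such low value in vehicle replicate 2, at 0.98 and 0.97 times the vehicle mean. Likeness was measured as the root mean square difference of log2 CPM over the 6 libraries after each gene was centred on its own mean. The range of a gene was not scaled. A small value thus means changes alike in size as well as in order, and the measure does not compare shape alone. Between Hmox1 and Gclc this difference was 0.14, and among the 11665 other features with a mean of at least 5 CPM only 0.67% were closer to Hmox1 than Gclc was. From Gclc, 0.81% of features were closer than Hmox1.

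Nqo1 stood apart from the other 3 genes in this measure. Its difference from Txnrd1 was 0.42, from Hmox1 0.49 and from Gclc 0.52. As seen from Nqo1, which varied more than most features, 7.72% of features were closer than Txnrd1. As seen from Txnrd1, 58.3% of features were closer than Nqo1. Txnrd1 and Nqo1 shared their lowest library, but their ranges differed. Centred values ran from -0.68 to 1.23 for Nqo1 and from -0.27 to 0.44 for Txnrd1. In this measure, which counts the size of changes, Txnrd1 was closer to the other 2 genes than to Nqo1. Txnrd1 differed from Gclc by 0.22 and from Hmox1 by 0.27, and as seen from Txnrd1, 16.6% and 27.7% of features were closer than these. This likeness rests on 6 libraries that share their scaling, and genes with a small range lie close to many features.

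**Figure D3:**
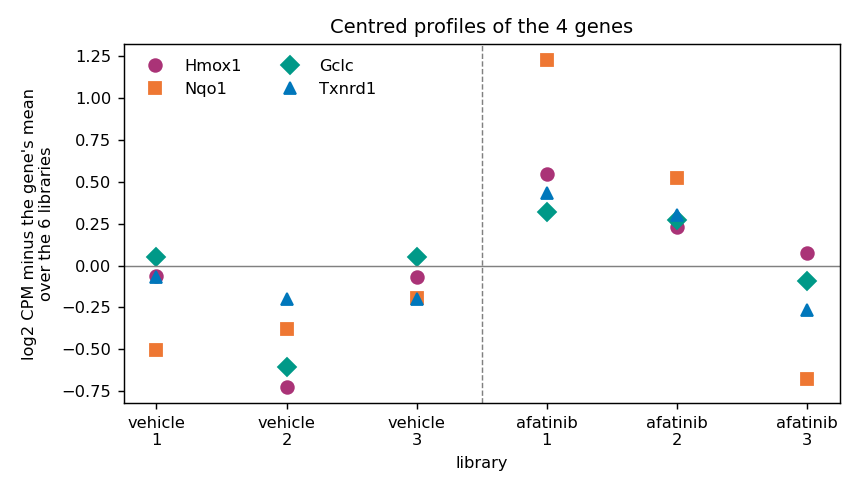
Log2 CPM of each gene minus its mean over the 6 libraries (vertical axis) in each vehicle and afatinib library (horizontal axis). Hmox1 and Gclc are low in vehicle replicate 2 (-0.73 and -0.60), and Nqo1 and Txnrd1 are low in afatinib replicate 3 (-0.68 and -0.27).

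The features closest to Hmox1 and Nqo1 among those with a mean of at least 5 CPM carry no symbol in the files. The closest to Hmox1 was ENSRNOG00000017663, with a root mean square difference of 0.06. It had 15.9, 9.33 and 15.9 CPM in vehicle replicates 1, 2 and 3, and 25.7, 19.6 and 16.4 CPM in afatinib replicates 1, 2 and 3. The closest to Nqo1 was ENSRNOG00000014629, with a difference of 0.10. It had 5.27, 5.04 and 6.25 CPM in vehicle replicates 1, 2 and 3 and 14.5, 9.42 and 4.03 CPM in afatinib replicates 1, 2 and 3. Both have the afatinib order of the gene they resemble, which is also that of the other genes examined, and the first also the low vehicle replicate 2. Because they were chosen for closeness over these same libraries, this likeness follows from the choice and is no separate result.

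Ratios of counts between 2 genes within a library need no scaling factor, and all 6 pairs were compared between the groups. The ratio of Hmox1 to Gclc was the one whose groups did not overlap. On the log2 scale it was 0.56, 0.55 and 0.55 in vehicle replicates 1, 2 and 3, and 0.90, 0.63 and 0.84 in afatinib replicates 1, 2 and 3. The gap between afatinib replicate 2 and the highest vehicle value was smaller than the counting standard error of a single ratio (0.077 to 0.115 over all libraries). How often pairs of other features separate in this way was not examined. The 3 vehicle values had an SD of 0.0046, much below the counting error of a single ratio in these libraries (standard error 0.086 to 0.115), so their closeness is tighter than the counts can resolve. The mean ratio of Hmox1 to Gclc was higher by 0.24 after afatinib (exact two-sided permutation p = 0.1, which is the minimum for 3 against 3 libraries; Benjamini-Hochberg adjusted p = 0.6 over the 6 pairs). Afatinib replicate 3 lay with the other afatinib libraries in this ratio, unlike in the levels of Nqo1, Gclc and Txnrd1.

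The other ratios overlapped between the groups. The log2 ratio of Nqo1 to Txnrd1 was -2.13, -1.87 and -1.69 in vehicle replicates 1, 2 and 3 and -0.90, -1.47 and -2.10 in afatinib replicates 1, 2 and 3, so that Nqo1 exceeded its vehicle share of the pair in afatinib replicates 1 and 2 only. Its mean differed by 0.41 between the groups (two-sided exact permutation test, p = 0.4, adjusted p = 0.9). The ratio of Hmox1 to Nqo1 ran from 0.20 to 0.99 in vehicle and from -0.13 to 1.31 in afatinib libraries, and afatinib replicate 3 was the highest of the 6. The ratio of Gclc to Txnrd1 differed by 0.02 in its mean (two-sided exact permutation test, p = 0.9, adjusted p = 0.9), with SDs of 0.35 among vehicle and 0.15 among afatinib libraries. For the 5 pairs that overlapped, permutation p-values ran from 0.4 to 0.9.

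**Figure D4:**
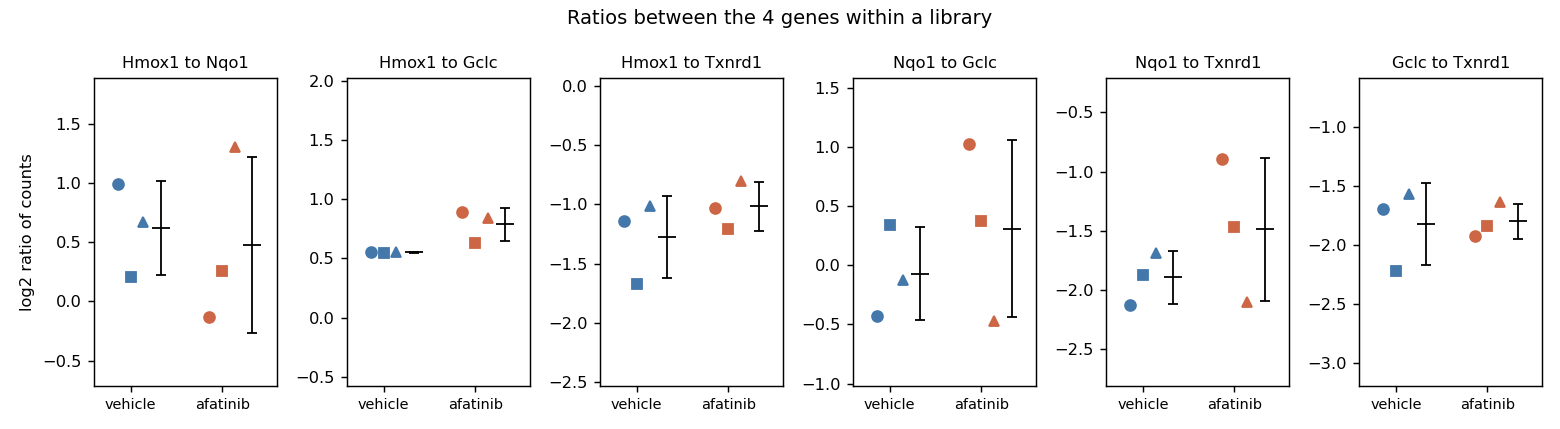
Log2 ratio of the counts of 2 genes within a library (vertical axes, all spanning the same range) for the 6 pairs, in vehicle and afatinib libraries. Circles, squares and triangles are replicates 1, 2 and 3, and black bars are the group mean ± SD (n = 3). The groups do not overlap for Hmox1 to Gclc, where afatinib replicate 2 lies close to the vehicle values. In the 3 pairs with Nqo1, afatinib replicate 3 lies at the far end from afatinib replicate 1.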

How the data were processed

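Back skin RNA was sequenced from 3 vehicle and 3 afatinib libraries. The deposited values are raw read counts per gene, 1 table per library, per the file headers. HISAT2 2.0.5, featureCounts 1.5.0-p3 and DESeq2 1.16.1 are named, without settings, per the submitters' processing notes, whereas the labels used state no genome build, annotation or strand setting. How reads shared by overlapping genes were handled is therefore not known. Samples were grouped and numbered by their titles. The file headings number the afatinib libraries 3, 4 and 5, which are replicates 1, 2 and 3 here.

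Features passing filterByExpr (15497) were scaled by TMM and compared by the robust quasi-likelihood test of edgeR 4.0.16 (R 4.3.3) with group as the only term, with Benjamini-Hochberg adjustment of the p-values over all of them. Standard errors and 95% intervals came from limma 3.58.1 (voom). Log2 CPM used a prior count of 2. Alternatives were DESeq2 1.42.0, scaling by upper quartile or by RLE, a minimum of 5 CPM in 3 libraries or no filter, the replicate block and each library left out. Scaling by library totals, and DESeq2 and limma voom with libraries left out, were chosen after seeing the data. The procedure was also run on simulated counts in which all libraries of a group shared 1 mean per feature. A library that departs from its group, as afatinib replicate 3 does for Nqo1, was not simulated.

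The genes, lists and rules were chosen with earlier results of these data known. The rule named the 4 genes, 13 further pathway genes and the features closest to each gene in pattern. No identifier of the 33692 matched the reference table (47357 rat genes, GRCr8), so 0 of the 112 symbols in 21 pathway and cell type lists had a value, no further gene was named, and as the rule then provides the closest identifier is printed for Hmox1 and Nqo1 only.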

Additional observations from a re-analysis of the deposited data

How the results depend on the processing

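The 4 log2 fold changes were above 0 under each of the 21 alternatives run for each gene. Leaving out 1 library in edgeR moved Hmox1 between 0.36 and 0.66, Nqo1 between 0.40 and 1.27, Gclc between 0.13 and 0.43 and Txnrd1 between 0.20 and 0.52. Without afatinib replicate 3, Nqo1 passed in edgeR (1.27), DESeq2 (1.28) and limma voom (1.23), and Txnrd1 in edgeR (0.52) and DESeq2 (0.53); the cause was not tested. No other alternative called any of the 4 genes, and adjusted p-values over all alternatives ran from 0.0683 to 0.528 for Hmox1, 0.000121 to 0.707 for Nqo1, 0.217 to 0.864 for Gclc and 0.000544 to 0.748 for Txnrd1. Scaling by library totals moved the median of all features by 0.12 on the log2 scale; the 4 genes were at 0.68, 1.08, 0.44 and 0.49 in the order above, so that relative to that shift they changed little from TMM. The number of features called was 0 in edgeR and limma voom with all 6 libraries and 1032 in DESeq2. With 1 library left out it ran from 0 to 1627 in edgeR and in DESeq2 it was 399, 490 and 744 without vehicle replicates 1, 2 and 3 and 336, 270 and 4085 without afatinib replicates 1, 2 and 3. It was 1376 in limma voom without afatinib replicate 3, the only library left out there. The highest numbers in edgeR and DESeq2 also came without this library. At an unadjusted p under 0.05 edgeR placed 3023 of 15497 features. Leaving out 1 library moved the ratio of Hmox1 to Nqo1 between -0.56 and 0.16, turning its sign to 0.04 without vehicle replicate 1 and 0.16 without afatinib replicate 1. It moved Gclc to Txnrd1 between -0.17 and 0.16, turning its sign to -0.17 without vehicle replicate 2 and -0.06 without afatinib replicate 3. Hmox1 to Gclc stayed between 0.18 and 0.32. The ratios were not tested with a library left out. Correlations of deviations from the group mean were 0.20, -0.21 and -0.39 for libraries that share numbers 1, 2 and 3. Between libraries of unlike number they ran from -0.37 to 0.43. Deviations within a group offset each other, so these values cannot decide whether libraries were paired. With the replicate block, edgeR called 0 features and the 4 genes were at 0.57, 0.73, 0.34 and 0.31. The pathway and marker lists were not tested, because no identifier could be paired with a symbol. Counting error for a single value was at most 6.13% (1 SD) of a level. For the log2 ratio of Hmox1 to Gclc in a vehicle library, the counting standard error was 0.086 to 0.115. The SD of 0.0046 among these libraries was below it, so their closeness is tighter than the counts can resolve.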
